A study of Homo sapiens with 26 samples.

Results

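The genes described here belong to the ubiquitin system: ligases that attach ubiquitin, the conjugating enzymes and substrate receptors that work with them, and the deubiquitinases that remove it. They were chosen by symbol alone (UBR, USP, UBE, HERC and RNF followed by a digit, HECTD, HUWE1, FBXO, FBXL, FBXW, TRIM, CUL and KLHL families, and OTUD), in any of 6 lists deposited by the authors. Of the 4083 gene symbols in those lists, 114 matched, and 108 of them are annotated as protein-coding. The symbols cover more than ligases and deubiquitinases: conjugating enzymes, scaffolds, receptors and 5 pseudogenes (HERC2P2, HERC2P3, HERC2P4, HERC2P5 and UBE2Q2P1) are among them. No OTUD gene was listed, of 8 annotated.

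The study sought RNA bound to EZH2, the histone methyltransferase of the PRC2 complex, and its title concerns artifacts made by mispriming in reverse transcription. RIP, which sequences RNA that precipitates with a protein, was done for small RNA in K562 (an established chronic myeloid leukaemia line) and in T98G and U87MG (established glioblastoma lines). K562 had 1 library each from EZH2 antibody, IgG2a control and input, and T98G and U87MG had 2 of each. These cells were untreated. T98G also had 6 libraries of fragmented long RNA (2 each from EZH2 antibody, IgG2a and no antibody) and 1 EZH2 iCLIP library, in which RNA is crosslinked before precipitation. U87MG had 2 polyadenylated RNA libraries with siRNA against EZH2 and 2 with siRNA against GFP. The title of the second siEZH2 library names EZH2 but its treatment label names EZH3. Nothing in the labels says that the numbered libraries came from separate cultures.

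The 6 lists are the authors' calls over these libraries: exons with EZH2-associated small RNA in each of the 3 lines, full-length RNA targets in T98G, introns retained beside such exons in U87MG, and genes changed by siEZH2 in U87MG. The full-length list is named under the iCLIP library in the labels, and whether the long RNA libraries entered it is not stated. No list holds counts per library, so read depth is unknown and no value below has a replicate error. Intervals are exact Clopper-Pearson intervals at 95% and cover counting error over genes or exons only. The lists hold no expression level against which to check the cell types. Of 10 erythroid genes looked up for K562, 0 were in any list, and of 10 glioblastoma genes 4 were (CD44, EGFR, FN1 and TNC), with CD44 also in the K562 list.

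Ubiquitin is passed from an activating enzyme (E1) to a conjugating enzyme (E2) and then, with the help of a ligase (E3), to a substrate. HECT ligases carry ubiquitin on their own cysteine before transfer, whereas RING ligases, such as the TRIM and many RNF proteins, bring the E2 to the substrate. Cullins are scaffolds of multi-subunit RING ligases, and F-box and Kelch-like proteins choose substrates for them. UBR-box proteins include the readers of destabilising N-terminal residues, and most USP proteins cleave ubiquitin from substrates. One RING protein, RNF2, acts in PRC1, the Polycomb complex that ubiquitinates histone H2A and works beside PRC2.

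Most listed ubiquitin genes came from T98G. The T98G small RNA list held 126 of their exons in 78 genes, the U87MG list 33 exons in 21 genes and the K562 list 17 exons in 14 genes. The T98G list is also the longest, with 2573 rows against 669 in U87MG and 397 in K562. As a share of rows, exons of ubiquitin genes were similar in the 3 lines: 4.90% in T98G, 4.93% in U87MG and 4.28% in K562. Full-length targets of T98G included 27 of these genes, and 26 were in the table of genes changed by siEZH2 and 1 in the retained intron list. Of the 114 genes, 77 were in 1 list (42 of them in the T98G small RNA list) and 37 were in 2 or more. UBR4 and HUWE1 were each in 5 lists, the highest number.

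**Figure D1:**
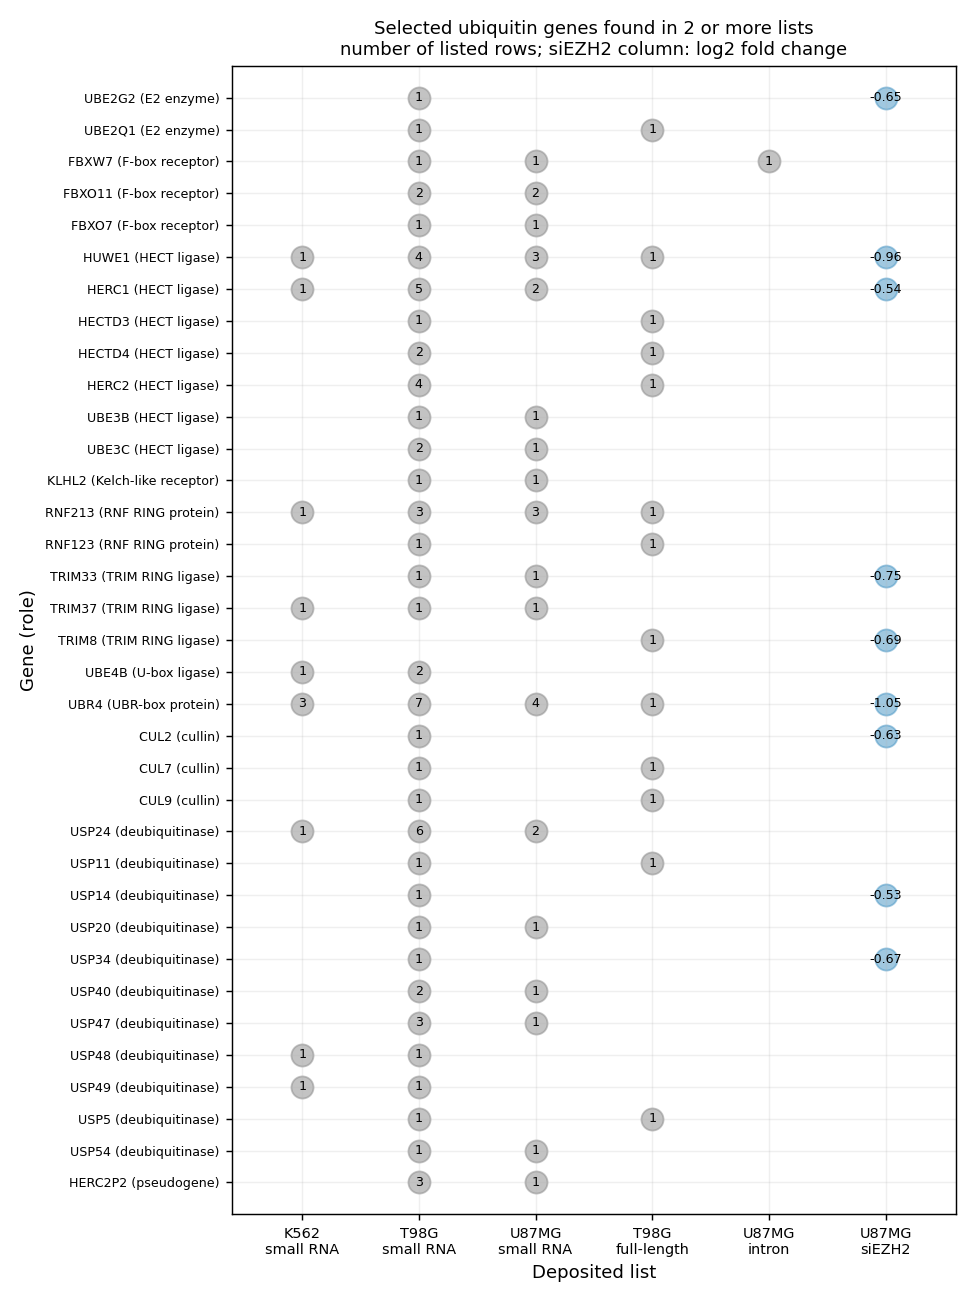
Selected ubiquitin genes that appear in 2 or more of the 6 lists (rows, with their role) against the lists (columns). Numbers in grey points are listed exons, gene rows or introns, and numbers in blue points are the authors' deposited log2 fold changes, all of them below 0. UBR4 has 3, 7 and 4 exons in K562, T98G and U87MG, and HUWE1 has 1, 4 and 3.

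As a share of the annotation, 73 of 415 protein-coding genes with such a symbol were in the T98G small RNA list (17.6%, 14.0 to 21.6), where 8.49% of all protein-coding genes were listed. In U87MG the share was 20 of 415 (4.82%, 2.97 to 7.35) against 2.58% of all protein-coding genes, and in K562 it was 14 of 415 (3.37%, 1.86 to 5.60) against 1.60%. In any of the 3 small RNA lists it was 78 of 415 (18.8%, 15.2 to 22.9) against 9.77%. For full-length targets the share was 27 of 415 (6.51%, 4.33 to 9.32) against 4.27%. For retained introns it was 1 of 415 (0.241%) against 0.169%. In the siEZH2 table it was 25 of 415 (6.02%, 3.94 to 8.76), close to the 6.30% of all protein-coding genes. Of the 415, 9 were higher there (2.17%, against 3.13% of all protein-coding genes) and 16 lower (3.86%, against 3.17%). The 415 include 26 near-identical USP17L genes, none of which was listed. These shares are descriptions. Genes that the cells do not express are in every denominator.

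Transcript length moved with listing. Ubiquitin genes in any small RNA list had a median canonical transcript of 5093 bp with 21 exons, against 3199 bp and 7 exons for those in none. Over all protein-coding genes the medians were 4752 bp and 16 exons against 2716 bp and 7 exons. With all protein-coding genes put into 5 bins of transcript length, 38 of 111 ubiquitin genes (34.2%) and 819 of 3863 others (21.2%) had a listed small RNA exon in the longest bin. In the next bin the numbers were 20 of 94 (21.3%) and 479 of 3880 (12.3%), and in the middle bin 15 of 81 (18.5%) and 310 of 3893 (7.96%). In the second shortest bin they were 5 of 99 (5.05%) and 192 of 3875 (4.95%), and in the shortest 0 of 28 and 79 of 3945 (2.00%). The part of length in the counts by gene was not tested further.

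**Figure D2:**
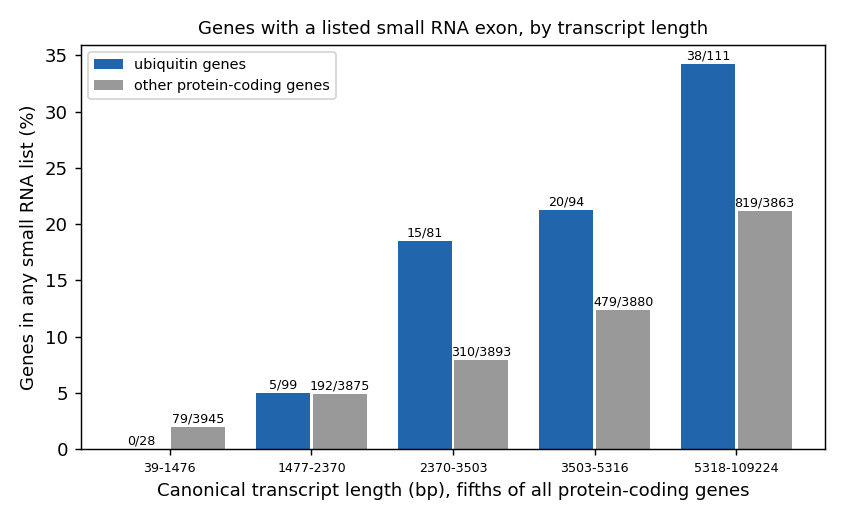
Share of genes with a listed small RNA exon in any of the 3 lines (vertical axis, percent) by canonical transcript length (horizontal axis, bp, 5 bins of about equal gene number). Blue bars are ubiquitin genes and grey bars other protein-coding genes, with listed and total genes above each; both rise from the shortest to the longest bin, to 34.2% and 21.2%.

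Of the 7 genes with a listed exon in all 3 lines, 6 are described first: UBR4, HUWE1, HERC1, RNF213, USP24 and TRIM37. Sharing a gene did not always mean sharing an exon. Only UBR4, USP24 and TRIM37 had an exon listed in all 3 lines, 4 exons in total, out of 140 distinct exons of ubiquitin genes. Of those 140 exons, 94 were listed in T98G alone, 23 in T98G and U87MG, 5 in K562 and T98G, 8 in K562 alone and 6 in U87MG alone.

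UBR4 is a very large UBR-box ligase that reads N-degrons. On chromosome 1, minus strand, it had 3 listed exons in K562, 7 in T98G and 4 in U87MG, of 106 exons in its canonical transcript. By number of exons per gene it had rank 3 in both T98G, where the rank was tied, and U87MG. In K562 it tied for rank 1, as 5 genes had 3 or more exons there and none had more than 3. Exons 64 (chr1:19452940-19453149) and 95 (chr1:19420443-19420633) were listed in all 3 lines. Exons 75 and 99 were listed in T98G and U87MG, exon 4 in K562 alone, and exon 14 and 2 wider, partly coding rows assigned to exons 48 and 76 in T98G alone. UBR4 was also a full-length target, and the authors' deposited table lists it at a log2 fold change of -1.05 under siEZH2.

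The sequences around the T98G peaks in the exons listed in all 3 lines are printed from GRCh37, RNA strand, 5′ to 3′, to show what these shared exons do and do not have in common. Each starts 15 bases before the peak middle. Capitals mark a run that matches the start of the library kit's 3′ adapter (AGATCGG, from general knowledge of the kit) over at least 4 bases, beginning 11 to 15 bases after the peak middle.
UBR4 exon 95, chr1:19420562-19420606, minus: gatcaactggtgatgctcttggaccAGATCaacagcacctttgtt
UBR4 exon 64, chr1:19453030-19453074, minus: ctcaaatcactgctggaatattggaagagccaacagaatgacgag
TRIM37 exon 6, chr17:57158530-57158574, minus: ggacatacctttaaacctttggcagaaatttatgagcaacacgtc
USP24 exon 12, chr1:55622621-55622662, minus: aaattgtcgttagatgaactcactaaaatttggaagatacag
Of these 4 windows, 1 has such a run and 3 have none. Peak positions are known only in T98G.

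HUWE1 is a giant HECT ligase with many substrates. It lies on chromosome X, minus strand, and its canonical transcript has 85 exons. K562 listed 1 exon (chrX:53707512-53707647), which is not an exon of that transcript and is not coding. T98G listed exons 4, 6, 43 and 55, and U87MG listed exons 43, 55 and 58. No HUWE1 exon was shared between K562 and a glioblastoma line. HUWE1 was a full-length target too, with a log2 fold change of -0.96 in the authors' deposited table.

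HERC1, a large HECT protein that also carries RCC1-like repeats, had 1 listed exon in K562, 5 in T98G and 2 in U87MG, of 78. Exon 13 was shared by K562 and T98G, and exons 52 and 59 by T98G and U87MG. HERC1 was not a full-length target. The authors' deposited table gives it a log2 fold change of -0.54.

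RNF213, a giant RING protein with an AAA ATPase module, had 1, 3 and 3 listed exons in K562, T98G and U87MG. Exons 21 and 22 were shared by T98G and U87MG, and its single K562 exon, 37, was in no other list. RNF213 was a full-length target and was not in the siEZH2 table.

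USP24, a large deubiquitinase, had 1, 6 and 2 listed exons. Exon 12 (chr1:55622621-55622724) was listed in all 3 lines and exon 34 in T98G and U87MG. TRIM37, a RING ligase of centrosomes and peroxisomes, had a single listed exon, number 6 (chr17:57158458-57158580), and it was the same in the 3 lines. Neither gene was a full-length target or in the siEZH2 table.

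**Figure D3:**
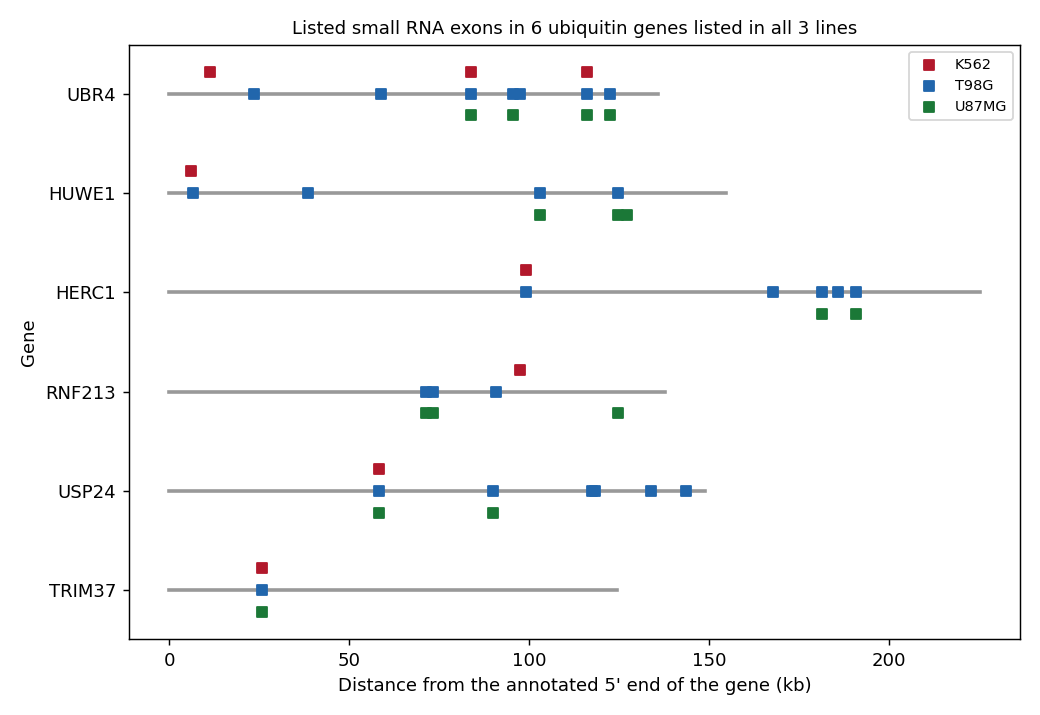
Positions of listed small RNA exons along 6 ubiquitin genes listed in all 3 lines. The horizontal axis is the distance of the exon's middle from the annotated 5′ end of the gene in kb, grey lines show gene lengths, and squares show exons listed in K562 (red), T98G (blue) and U87MG (green). Squares align vertically where lines share an exon, in all 3 lines at 2 places in UBR4, 1 in USP24 and 1 in TRIM37.

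Where exons were shared, their listed ends were identical. Of the 33 U87MG exons in ubiquitin genes 27 were also in the T98G list (81.8%, 64.5 to 93.0), and for all other U87MG exons the share was 64.2%. These 27 are 21.4% of the T98G exons in ubiquitin genes (16.7% for other exons). Of the 17 K562 exons 9 were in the T98G list (52.9%, 27.8 to 77.0; 45.3% for other exons) and 4 were in the U87MG list (23.5%, 6.81 to 49.9; 19.7% for other exons). The 9 are 7.14% of the T98G exons and the 4 are 12.1% of the U87MG exons. Each interval for ubiquitin genes includes the share of other exons of the same list, except that for U87MG in T98G. Its lower bound of 64.5% lies just above the 64.2% of other exons. Exons of the same gene, such as the 4 of UBR4 in U87MG, were counted separately, so this interval cannot decide whether the shares differ. With protein-coding genes only, which leaves out a HERC2P2 exon, 26 of 32 U87MG exons were also in the T98G list. The interval for that share was not computed.

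HECT ligases with a HERC, HECTD, HUWE1 or UBE3 symbol had 11 of 15 annotated protein-coding genes in a small RNA list (73.3%, against 9.77% of all protein-coding genes). They had 25 exons in T98G, 10 in U87MG and 3 in K562. HECT ligases with other symbols, such as NEDD4 and ITCH, are not among the 15, so this is not the share of the whole class. The median canonical transcript of the 15 was 5214 bp long, and the part of length in this share was not tested. Besides HUWE1 and HERC1, HERC2 had 4 exons in T98G and was a full-length target. HECTD3 (1 T98G exon) and HECTD4 (2) were full-length targets too. UBE3C, a ligase that acts at the proteasome, and UBE3B had 2 and 1 T98G exons, of which 1 each was also listed in U87MG. HERC4 had 2 T98G exons, HERC3 had 1, and HERC6 was listed in U87MG alone with 1.

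The HERC2 calls cannot all be assigned to HERC2. The 30 bases centred on the T98G peak occur 4 times in GRCh37 for 3 of its 4 exons (exons 3, 24 and 39) and once for exon 26. Exon 3 of HERC2 and exons of HERC2P2 and HERC2P3 have the same 30 bases, and so do exon 39 and an exon of HERC2P4. Thus 1 sequence was listed under 3 gene names. Exons of HERC2P2 and HERC2P5 share another 30 bases, with 7 copies. Over all ubiquitin genes, 107 of 120 T98G peaks had 30 bases found once in the genome and 13 had 2 or more copies. Apart from HERC2 and its pseudogenes, those with copies were in FBXW10, TRIM16, USP6 and USP32.

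Among UBR-box proteins other than UBR4, the number of exons in T98G was 3 each for UBR1 and UBR2, and 1 for UBR3. UBR1, UBR2 and UBR3 were listed in T98G alone. UBR1 and UBR2, the classic N-recognins, are paralogs with 47 exons each, and both had exon 39 listed, beside exons 5 and 28 in UBR1 and 14 and 26 in UBR2.

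Among the small RNA lists, cullins were found only in that of T98G, the longest: 2 exons in CUL1 and 1 each in CUL2, CUL4A, CUL7 and CUL9. That is 5 of 8 annotated genes (62.5%, against 9.77% of all protein-coding genes in any small RNA list). The median canonical transcript of the 8 was 5868 bp long, and the part of length in this share was not tested. CUL7 and CUL9 were also full-length targets. Their listed exons are each 91 bp wide, exon 11 of CUL7 and exon 15 of CUL9. In both, the peak middle lies 1 base outside the 5′ end of the listed exon and the longest adapter-like run starts 15 bases after it. The first 29 exon bases are printed for both because they are identical, with 0 mismatches, so a read confined to them fits either gene.
CUL7 exon 11, chr6:43014311-43014339, minus: atggtgctgggccAGATCGaagaccacag
CUL9 exon 15, chr6:43168174-43168202, plus: atggtgctgggccAGATCGaagaccacag
CUL2, the scaffold of the VHL ligase, had a log2 fold change of -0.63 in the authors' deposited table.

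F-box proteins with an FBXO, FBXL or FBXW symbol had 7 of 62 annotated genes in a small RNA list (11.3%), near the 9.77% of all protein-coding genes. FBXO11 had 2 exons in T98G and 2 in U87MG, with exon 10 in both. FBXO7 had a single exon of 38 bp in both lines, the narrowest listed exon of any ubiquitin gene. FBXW7, the receptor for cyclin E, MYC and NOTCH, had 1 partly coding exon of 719 bp, exon 4 (chr4:153332312-153333030, minus strand), in both T98G and U87MG. FBXW7 was the only ubiquitin gene chosen here in the retained intron list. That intron (chr4:153303666-153332313, 28648 bp) borders the listed exon, and its deposited score of 2.25, whose scale is not stated, ranked 5 of 42. FBXL2, FBXL14 and FBXW10 were listed in T98G alone and FBXO9 in K562 alone. Of the Kelch-like proteins, KLHL2 had 1 exon, the same in T98G and U87MG, and KLHL12 had 1 in T98G.

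For the RNF family of RING proteins, 7 of 85 annotated genes (8.24%) were in a small RNA list, and for the TRIM family 6 of 77 (7.79%), both near the 9.77% of all protein-coding genes. Apart from RNF213, the RNF genes had 1 exon each: RNF4, RNF123, RNF135, RNF144A and RNF216 in T98G, and RNF34 in K562. TRIM33, a nuclear ligase of TGF-beta signalling, had exon 16 listed in T98G and exon 3 in U87MG. TRIM16, TRIM45, TRIM52 and TRIM62 had 1 exon each in T98G. Both U-box ligases with a UBE4 symbol were listed, UBE4A with 1 T98G exon and UBE4B with 2, of which exon 23 was also in K562.

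E2 enzymes, grouped by a UBE2 symbol alone, had 8 of 37 annotated genes in a small RNA list (21.6%, against 9.77% of all protein-coding genes). They were listed in T98G (7 genes, 9 exons) and K562 (1 gene, 2 exons). In U87MG they had 0 exons, where the list holds only 2.58% of all protein-coding genes. UBE2D2 and UBE2Q2 had 2 exons each in T98G, and UBE2D3, UBE2G2, UBE2J1, UBE2Q1 and UBE2V1 had 1 each. The UBE2V1 row also carries the name of the TMEM189-UBE2V1 read-through gene. UBE2Z, an E2 charged by UBA6, had 2 exons, both in K562.

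Genes with a USP or OTUD symbol, grouped here as deubiquitinases, were the class with the most listed genes. Of 86 annotated genes, 25 (29.1%, against 9.77% of all protein-coding genes) were in a small RNA list, with 35 exons in T98G. The 86 include the 26 USP17L genes. USP8, an endosomal deubiquitinase, and USP47 had 3 T98G exons each. USP40 and USP9Y had 2 each. USP47, USP40, USP20 and USP54 shared 1 exon each between T98G and U87MG, and with USP24 they were the only deubiquitinases in the U87MG list. USP48 and USP49 shared 1 exon each between K562 and T98G, and USP15 was listed in K562 alone. USP5, USP6, USP7, USP9X, USP11, USP12, USP13, USP14, USP25, USP31, USP32, USP34, USP35, USP39 and USP45 had 1 T98G exon each and no other small RNA call.

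Full-length targets in T98G overlapped the small RNA calls in part. Of the 27 ubiquitin genes among them, 13 also had a T98G small RNA exon (48.1% of the 27 and 16.7% of the 78 genes with such an exon). Among other genes 197 were in both, 21.9% of 899 full-length and 10.0% of 1968 small RNA symbols. The median canonical transcript of full-length targets was 4122 bp long for ubiquitin genes and 3696 bp over all protein-coding genes. The part of length in this overlap was not tested. Among the 13 were UBR4, HUWE1, HECTD3, HECTD4, HERC2, RNF213, RNF123, CUL7, CUL9, UBE2Q1, USP5 and USP11. The other 14 had no T98G small RNA exon: FBXL6, FBXL8, FBXL16, KLHL36, RNF31, RNF44, RNF126, RNF166, TRIM8, TRIM25, TRIM28, UBE2J2, USP19 and USP22. FBXL6, FBXL8 and RNF31 lie in rows that join 2 or 3 gene names, so the call cannot be assigned to them alone. TRIM28 is the corepressor KAP1 and USP22 removes ubiquitin from histones in the SAGA complex.

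The siEZH2 comparison asks which genes changed in U87MG when EZH2 was targeted. In the authors' deposited table, 10 of the 26 ubiquitin genes were higher under siEZH2 than siGFP (38.5%, against 49.3% of all rows) and 16 were lower (61.5%), where 50.7% of all 1342 rows were lower. On the log2 scale, the authors' deposited table gives the 10 a median of 1.02 and the 16 a median of -0.70, against 1.01 and -0.74 over all higher and all lower rows. With an absolute log2 fold change of at least 1, 6 of these genes were higher and 2 lower in the authors' deposited table (75.0% higher, against 73.9% of all 468 such rows). The order of names in the table's title was taken as siEZH2 over siGFP, and EZH2 has no row there that could check it. With the opposite order, every direction given here for the authors' deposited table would turn, with 16 genes higher and 10 lower. Reads were aligned as unstranded, per the labels, so antisense transcripts cannot be told apart.

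None of the 10 higher genes was in an EZH2 list, where 12.1% of all higher rows of the authors' deposited table have an EZH2-listed gene. The largest values in the authors' deposited table were 1.70 for RNF175 and 1.42 for RNF2, the catalytic RING subunit of PRC1. UBE2S (1.28), which extends ubiquitin chains for the anaphase-promoting complex, and FBXO5 (1.04), an inhibitor of that complex, followed with UBE2T (1.23), the E2 of the Fanconi anaemia pathway, in the authors' deposited table. KLHL38 (1.00), TRIM16L (0.96, not annotated as protein-coding), HERC5 (0.95), RNF11 (0.61) and RNF7 (0.56) complete the higher genes of the authors' deposited table. HERC5 is the ligase for ISG15, and RNF7 is a RING subunit of cullin ligases.

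Of the 16 lower genes, 9 were in at least 1 of the 4 EZH2 lists (the 3 small RNA lists and the full-length list). In the authors' deposited table they were UBR4 (-1.05), HUWE1 (-0.96), TRIM33 (-0.75), TRIM8 (-0.69), USP34 (-0.67), UBE2G2 (-0.65), CUL2 (-0.63), HERC1 (-0.54) and USP14 (-0.53). USP14 trims ubiquitin at the proteasome, UBE2G2 serves degradation from the endoplasmic reticulum, and USP34 acts in Wnt signalling. Thus 9 of 9 ubiquitin genes found in both kinds of list were lower in the authors' deposited table, where 73.5% of all 302 rows with an EZH2-listed gene were lower. Among the 17 ubiquitin genes in no EZH2 list, 10 were higher and 7 lower in the authors' deposited table. The same split over other genes was 571 higher and 452 lower. Only TRIM33, HERC1, HUWE1 and UBR4 of the 9 had a call in U87MG, the line of the knockdown. The remaining lower genes of the authors' deposited table were FBXO36 (-1.12), TRIM23 (-0.90), UBE2K (-0.84), RNF187 (-0.78), FBXO22 (-0.71), USP53 (-0.60) and UBE2H (-0.52). The table gives no error for these values, and expression level and transcript length were not taken into account.

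**Figure D4:**
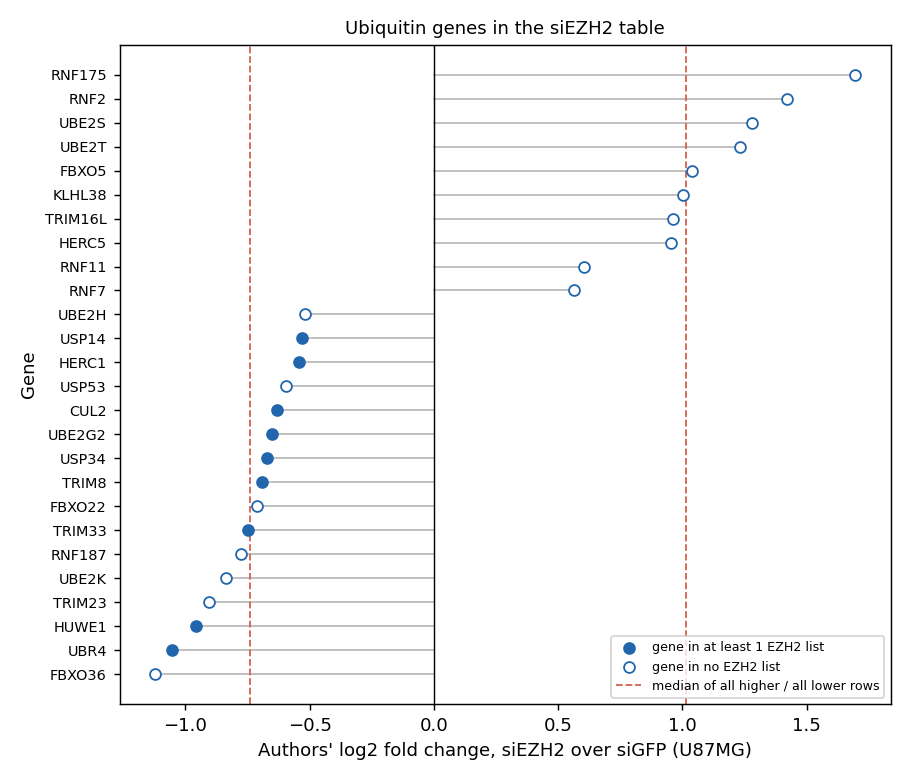
The authors' deposited log2 fold change under siEZH2 over siGFP in U87MG (horizontal axis) for the 26 ubiquitin genes of the table (vertical axis). Filled points are genes in at least 1 EZH2 list and open points genes in none; dashed lines mark the medians of all higher (1.01) and all lower (-0.74) rows, and every filled point lies below 0.

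Ubiquitin-system genes outside the symbol rule were looked up in a list of 111 further ligases, deubiquitinases and proteasome-pathway genes. That list was chosen with earlier results of these data known and is not a full set of such genes. Its shares are therefore descriptions and no independent check of those above. Of the 111, 28 were in the T98G small RNA list (25.2%, against 8.49% of all protein-coding genes), 10 in U87MG (9.01% against 2.58%) and 4 in K562 (3.60% against 1.60%). Among full-length targets there were 7 (6.31% against 4.27%), and 1 was in the retained intron list (0.901% against 0.169%). MYCBP2, a giant neuronal ligase, had 6 exons in T98G and 5 in U87MG, and BIRC6, an E2-E3 hybrid, had 1, 4 and 1 in K562, T98G and U87MG and a retained intron. Of the 111 genes, 6 were higher and 14 lower in the authors' deposited table (18.0% listed, against 6.30% of all protein-coding genes). Of the 10 that were also in an EZH2 list, 9 were lower, among them MYCBP2 (-1.13), BIRC6 (-0.85) and DDB1 (-0.70), and CDC27 (0.54) was higher in the authors' deposited table. Of the 10 in no EZH2 list, 5 were lower in the authors' deposited table.

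The T98G list gives a signed distance from which the peak in or beside each exon can be placed. What the distance measures is not stated, and it was read as exon middle minus peak middle. With the opposite sign, the share of 26.7% given next would be 3.33%. A whole-base peak position was obtained for 120 of the 126 T98G exons of ubiquitin genes. AGAT, the first 4 adapter bases, began on the RNA strand 11 to 15 bases after the peak middle in 32 of the 120 (26.7%, 19.01 to 35.51). In the window 20 bases further (starts 31 to 35) it was found in 5 (4.17%, 1.37 to 9.46). The window of starts 11 to 15 was known from an earlier look at these data, so this contrast is a description and not a test. Over the 2343 peaks of all other exons the shares were 25.7% and 3.37%, so ubiquitin genes were close to the rest of the list. At the single start 11, 9 peaks of ubiquitin genes (7.50%) had AGAT, and at start 10 there were 0. AGATC began in the near window in 17 (14.2%) and in the far window in 4 (3.33%), against 13.4% and 0.726% of other peaks. For AGATCG the counts were 6 (5.00%, 1.86 to 10.6) and 0, which allows a share of up to 2.50%, taken here and for other counts of 0 as 3 counts of the total rather than as an exact interval.

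**Figure D5:**
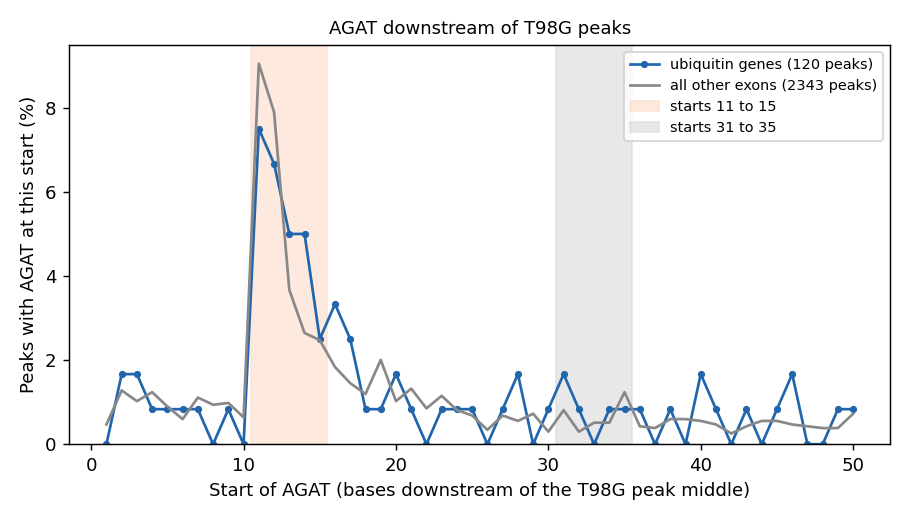
Share of T98G peaks with AGAT on the RNA strand (vertical axis, percent) by its start in bases downstream of the peak middle (horizontal axis). Blue points are the 120 peaks of ubiquitin genes and the grey line the 2343 peaks of all other exons; both step up between starts 10 and 11, to 7.50% and 9.05%, inside the pink window of starts 11 to 15; the grey window marks starts 31 to 35.

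Of the 6 peaks with AGATCG in the near window, 5 were in CUL7, CUL9, FBXO11, HERC4 and USP45. The 3 of these not yet shown are printed from GRCh37 on the RNA strand, because they carry long adapter-like runs, 7 bases in HERC4 and USP45 and 6 in FBXO11. HERC4 and USP45 start 15 bases before the peak middle, and FBXO11 starts 10 bases before it, at the exon's 5′ end.
HERC4 exon 15, chr10:69748484-69748528, minus: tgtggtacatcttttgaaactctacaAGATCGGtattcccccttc
USP45 exon 11, chr6:99914589-99914633, minus: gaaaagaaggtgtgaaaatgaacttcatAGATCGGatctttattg
FBXO11 exon 22, chr2:48035527-48035566, minus: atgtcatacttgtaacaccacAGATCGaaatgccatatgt
All 3 exons were listed in T98G alone. The capitals begin 12 bases after the peak middle in HERC4 and FBXO11 and 14 bases after it in USP45.

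USP6 and USP32 are paralogs, USP6 being a hominoid gene partly derived from USP32, and each had 1 T98G exon of 175 bp. Their peak middles lay 1 base apart in the aligned sequences. The windows, chosen after the values were seen, are printed to show that they can hardly be told apart: over 44 bases they differ at 1, and the first 36 are identical. The 30 bases centred on each peak occur 2 times in GRCh37.
USP6 exon 27, chr17:5048700-5048744, plus: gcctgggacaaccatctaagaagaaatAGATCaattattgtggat
USP32 exon 23, chr17:58286146-58286189, minus: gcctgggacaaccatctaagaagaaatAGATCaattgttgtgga

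Across whole exons, 12 of 126 T98G exons of ubiquitin genes held AGATCG in the RNA sense (9.52%, 5.02 to 16.1) and 0 held it on the opposite strand, which allows up to 2.38%. Other T98G exons had it in 10.7% and 3.15%. In U87MG 3 of 33 exons had it on the RNA strand (9.09%, 1.91 to 24.3; 10.8% of other exons). In K562 0 of 17 did, which allows up to 17.6%, against 8.16% of other exons. A difference of this size was not detectable with 17 exons.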

How the data were processed

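Each of the 6 lists was used as deposited by the authors. Per the labels, small RNA reads were trimmed with cutadapt, aligned to hg19 with BWA, counted in exons with bedtools and called by the authors with DESeq2 and pyicoclip. Per the labels, the authors assigned long RNA, iCLIP and siRNA reads to genes by featureCounts, and DESeq2 made the calls. Thresholds are not given in the sources used here. The siEZH2 table holds the authors' deposited log2 fold changes at an adjusted p of 0.05 in its name. The other value columns were treated as a deposited score: the number of joined names for K562, U87MG and full-length targets, a signed distance in T98G and an unexplained score for introns. Of columns that hold values of a single library there were 0.

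Genes were matched by symbol, and every name in a joined row was used. Members and gene lists were chosen with earlier results of these data known. The rule for genes named in detail took those with exons in all 3 lines, in both an EZH2 list and the siEZH2 table, with 3 or more exons in 1 line, with a retained intron, the 5 highest and 5 lowest siEZH2 values, AGATCG beside the T98G peak, or the most lists. Some genes that the rule takes are not reported here. Other genes are given by name and count, and single details of them were chosen after their values were seen. Roles were assigned from the symbol alone, whatever the activity of the single protein, and separate UBE3 and UBE4 ligases from E2 enzymes. All rows lay within GRCh37 chromosomes, the assembly behind hg19, and genes, exons and coding sequence came from GENCODE release 44 mapped to GRCh37. The longest Ensembl canonical transcript gave length. An overlap needed 1 shared base on the same strand. The peak middle was taken as the exon middle minus the distance, and positions count from 1 at the next base downstream. Motif counting was tested on simulated data. No test was run, since the lists have no replicates. Python 3.11.15 and SciPy 1.17.1 were used.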

Additional observations from a re-analysis of the deposited data

How the results depend on the processing

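No paired analysis was possible because the lists carry no values for single libraries, and for the same reason no library could be left out. Counts of exons and genes per line and of exons shared between lines stayed within 1.5 times of those reported under all alternatives run: annotated overlap in place of symbols, joining within 1000 bp, protein-coding genes only, 50% reciprocal overlap and identical ends. With an absolute log2 fold change of at least 1, 6 genes were higher and 2 lower, in place of 10 and 16. AGAT was found beside 3.33% of T98G peaks when the distance was added instead of subtracted, and beside 7.50% at start 11 alone, a narrower window. For the shorter AGATC the share of exons was 35.3% in K562, 38.9% in T98G and 36.4% in U87MG. The restrictions of exon sharing to protein-coding genes and of peaks to sequences found once in the genome (27.1%) were chosen after seeing the data. Read depth behind each call is unknown.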

Other observations

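Other features of ubiquitin-gene exons are given beside the rest of their lists, with no test. Median width was 151 bp in T98G, 191 bp in K562 and 166 bp in U87MG, against 189, 186 and 166 bp for all other exons. Median GC content was 43.7%, 42.3% and 44.9% against 44.2%, 45.1% and 44.5%. Of the 140 distinct exons, 93 were coding throughout, 36 partly coding, 4 in a UTR or non-coding transcript, and 7 in genes not annotated as protein-coding. AGAT lay 11 to 15 bases after the peak in 25 of 88 T98G exons listed in that line alone (28.4%, 19.3 to 39.0) and in 7 of 32 also listed in another line (21.9%, 9.28 to 40.0). For other genes the order was the opposite, 24.4% and 30.6%. The intervals for ubiquitin genes include both values.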
